A study of Mus musculus with 16 samples.

Results

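The genes described here are 48 cell cycle and DNA replication genes, taken from a named list and followed through bulk RNA sequencing of 16 mouse mammary tumours. They make up 48 of the 47311 genes to which at least 1 measured transcript could be matched. By role they fall into 21 mitotic members, 19 S phase members and 8 regulators of the G1 phase. All 48 passed the filter on low counts, and the lowest count of any member in any tumour was 613 reads.

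The tumours grew from E0771-luciferase cells, a mouse mammary carcinoma line that carries a luciferase reporter, in female C57BL/6J mice. All mice ate a high-fat diet with 60% of its energy from fat between 8 and 26 weeks of age, and 250000 cells in matrigel were placed in mammary gland 4. The anti-PD-1 group (8 tumours) received 200 ug of an antibody against the checkpoint receptor PD-1 by intraperitoneal injection every 3 days from day 3 until day 21. The IgG2a group (8 tumours) received the same schedule and amount of an isotype control antibody. Every mouse was therefore obese by diet design, bore the same transplanted line and was injected, and no lean or untreated group is described here. Each library was treated as 1 tumour, so the spread below is taken as that between tumours. The replicate numbers used here only name the tumours.

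Cells enter the cycle when D-type cyclins with Cdk4 or Cdk6 inactivate the retinoblastoma protein, which frees E2F factors to switch on the genes of DNA replication. Replication origins are loaded with the Mcm2-7 helicase by Cdc6 and Cdt1 and fired with Cdc45 and the GINS complex. Mitotic genes are switched on later, by Mybl2 and Foxm1 acting with the MuvB core at promoters that often hold a CHR element, and they carry out chromosome condensation, spindle assembly and division. In transplanted tumours most dividing cells are usually tumour cells, but lymphocytes, vessels and fibroblasts also divide, and bulk RNA does not separate them.

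The promoters of the mitotic members are shown first because they share letters that the choice of genes did not use. RefSeq promoter sequences (build GRCm38.p6, from 250 bases before to 50 bases after the start) were at hand for 37 genes: 16 mitotic, 16 S phase and 5 G1 members. The CHR core TTTGAA, searched on both strands in the 100 bases around the start, was present in 11 of the 16 mitotic members (68.8%), in 2 of the 16 S phase members (12.5%), and in 0 of the 5 G1 members. The share over all 27025 genes with such an entry was 5.72%. CCAAT, searched on both strands in the 250 bases before the start, was present in 15 of 16 mitotic, 10 of 16 S phase and 3 of 5 G1 members, against 37.5% of all genes. Other mitotic genes from a separate list of 31 carried TTTGAA near the start in 16 of 27 cases (59.3%). They carried CCAAT before the start in the same number, 16 of 27, close to the 62.5% of S phase members. These matches are letters in a window and not measured binding sites.

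In the following windows, written 5′ to 3′ on the strand of the gene, capitals mark TTTGAA and CCAAT or their reverse complements.
Cdc20 (chr4:118437332-118437413, minus strand): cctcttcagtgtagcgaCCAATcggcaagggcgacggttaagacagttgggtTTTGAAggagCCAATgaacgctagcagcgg
Cdk1 (chr10:69352908-69353002, minus strand): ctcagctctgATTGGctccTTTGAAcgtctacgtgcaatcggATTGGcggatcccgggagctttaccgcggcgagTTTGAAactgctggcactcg
Top2a (chr11:99024190-99024274, minus strand): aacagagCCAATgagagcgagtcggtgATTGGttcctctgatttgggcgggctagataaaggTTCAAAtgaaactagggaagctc
Ccnb2 (chr9:70421540-70421644, minus strand): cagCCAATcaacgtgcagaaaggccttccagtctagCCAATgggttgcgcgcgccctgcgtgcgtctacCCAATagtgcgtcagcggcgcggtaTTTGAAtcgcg
Kif11 (chr19:37376322-37376381, plus strand): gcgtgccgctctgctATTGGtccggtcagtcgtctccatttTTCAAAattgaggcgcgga
Mki67 (chr7:135716460-135716529, minus strand): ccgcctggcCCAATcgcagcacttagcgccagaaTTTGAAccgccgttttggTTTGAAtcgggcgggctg
Mki67 is shown because it carried TTTGAA upstream of the 100-base window, and because its level did not follow that of the other mitotic members in 1 tumour described below. In that tumour the 11 mitotic members with TTTGAA near the start had a median level of 28.3% of the median of the other tumours. The 5 without it, Mki67 among them, had 27.9%. A relation of these letters to level was not tested.

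The S phase members shared other letters. At least 1 of the E2F spellings TTTCCCGC, TTTGGCGC, TTTCGCGC and TTTGCCGC, searched on both strands over the 300 bases, was present in 6 of 16 S phase members (37.5%), 1 of 16 mitotic members and 1 of 5 G1 members. The share over all genes was 2.61%. In a separate list of 30 other S phase genes it was 11 of 24 (45.8%). Below, capitals mark these spellings only, and in Mcm6 and Mcm5 a pair of matches on opposite strands overlaps.
Mcm6 (chr1:128359736-128359825, minus strand): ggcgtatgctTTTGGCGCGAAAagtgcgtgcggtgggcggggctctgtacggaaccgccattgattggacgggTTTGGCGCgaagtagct
Mcm5 (chr8:75109344-75109408, plus strand): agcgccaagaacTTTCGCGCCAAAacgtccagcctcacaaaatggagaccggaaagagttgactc
Cdc6 (chr11:98908001-98908060, plus strand): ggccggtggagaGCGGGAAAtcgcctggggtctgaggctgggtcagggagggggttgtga
The promoter window of Birc5, the member with the largest treatment estimate, held none of these letters in its 300 bases.

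Sequencing depth was 59036535 to 82591064 assigned reads per tumour. Together the 48 members took 0.502% to 0.684% of reads in 15 tumours and 0.263% in the other one, IgG2a replicate 7. That tumour stood apart from the other 15 in every marker list of stromal and epithelial cells. Its summed endothelial marker level was 1925 CPM (counts scaled to a common library size), against 160 to 318 CPM in anti-PD-1 tumours and 170 to 263 CPM in the other 7 IgG2a tumours. Its adipocyte markers summed to 11367 CPM, against 55.0 to 230.1 CPM in anti-PD-1 tumours and 55.5 to 360 CPM in the other IgG2a tumours. All 12 endothelial, all 10 adipocyte, all 9 epithelial, 13 of 18 fibroblast and matrix and 8 of 10 leukocyte markers were highest there, and 0 of 11 T cell markers were. The labelled mammary tumour was otherwise poor in epithelial markers. Krt8 ran from 45.2 to 76.3 CPM in the 15 other tumours, while Epcam ran from 0.251 to 9.79 CPM. IgG2a replicate 3 held skeletal muscle RNA, at 31152 CPM over 9 markers, and anti-PD-1 replicate 6 had the fewest transcripts with a read, 38934 against 47952 to 55427 in the other tumours.

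Among the mitotic members, IgG2a replicate 7 was the lowest of all 16 tumours in 20 of 21, and its level was under 50% of the median of the other 15 tumours in those 20. Over all genes tested, its level was under 50% of that median in 16.7%. Its median level was 27.9% of that median over the mitotic members, 47.04% over the S phase members, 66.5% over the G1 regulators and 102% over all 16154 genes tested. It was the lowest tumour in 17 of 19 S phase members, in 3 of 8 G1 members, and in 40 of all 48 members. Over all genes tested it was the lowest in 27.1%. The mitotic score, the mean log2 CPM of its members, lay 1.61 log2 units under the median of the 16 tumours there, while the other 15 lay between -0.14 and 0.16. The S phase score lay at -1.14, with the other 15 between -0.10 and 0.15. A smaller share of dividing cells and less RNA per dividing cell cannot be told apart in bulk tissue, nor can dilution by RNA of other cells, and the part of the other cells' markers in this difference was not tested.

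**Figure D1:**
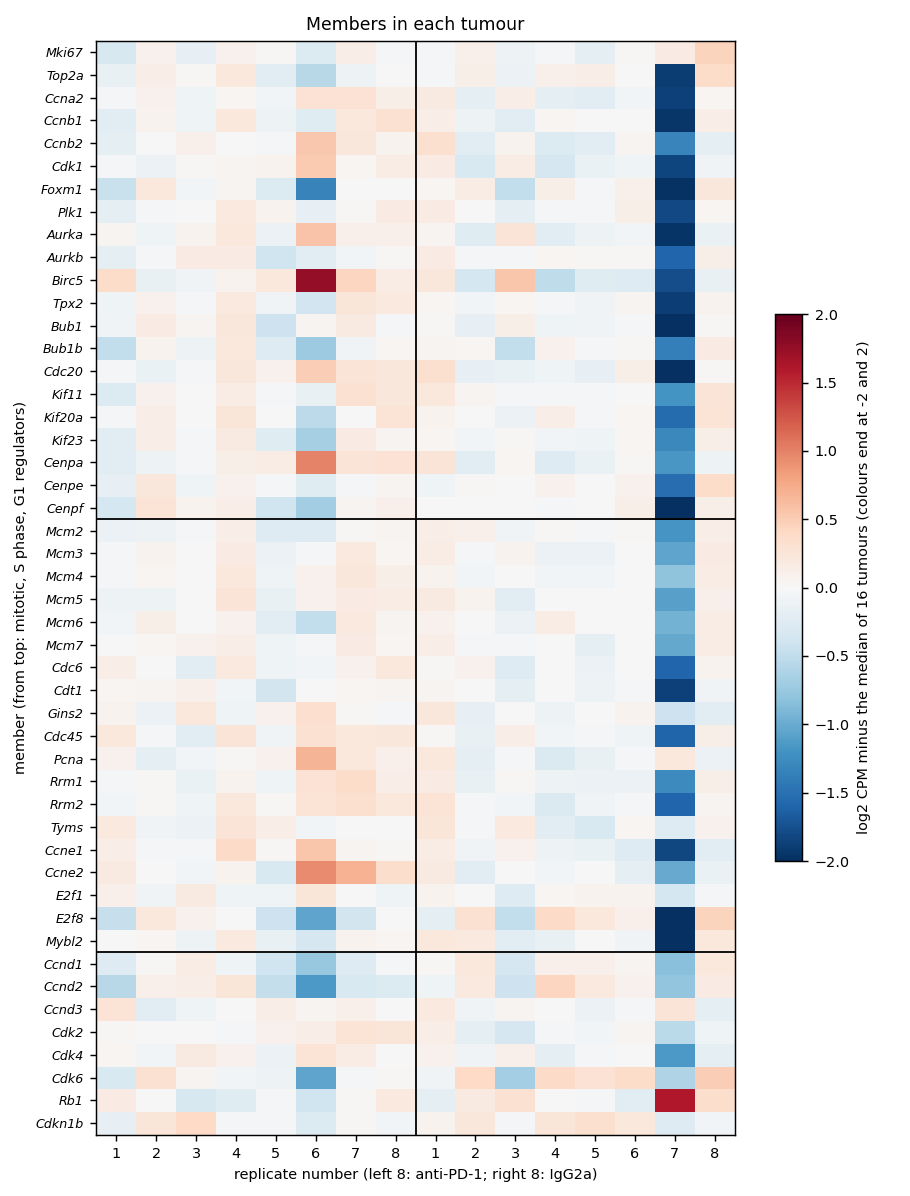
Heat map of the 48 members (rows, by role) in the 16 tumours (columns, 8 anti-PD-1 tumours left of 8 IgG2a tumours). Colour gives log2 CPM minus the median of the 16 tumours; the column of IgG2a replicate 7 is blue in nearly every mitotic and S phase row, with Mki67, Pcna, Ccnd3 and Rb1 as the rows above their median.

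Of the chromosome and spindle genes, Top2a, the DNA topoisomerase that untangles sister chromatids (ENSMUSG00000020914, chromosome 11, 98992943 to 99024189 in GRCm38), had a lowest, median and highest level of 329.6, 468 and 559 CPM in anti-PD-1 tumours, against 130.1, 498 and 624 CPM in IgG2a tumours. The groups overlapped, and the lowest value of each came from anti-PD-1 replicate 6 and IgG2a replicate 7. Its log2 fold change was -0.01 ± 0.22 (SE), with a 95% interval from -0.47 to 0.45. Cenpf, a kinetochore protein, had the deepest deficit in IgG2a replicate 7, at 21.1% of the median of the other 15 tumours. Bub1, a spindle checkpoint kinase, stood at 21.4% of that median and Cdc20, the activator of the anaphase-promoting complex, at 24.6%. Kif11, the motor that pushes spindle poles apart, stood at 43.5%.

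Of the mitotic kinases and their regulators, Cdk1, the kinase that drives entry into mitosis, had 128.0, 143 and 198 CPM in anti-PD-1 tumours (lowest, median and highest), against 38.5, 128 and 155 CPM in IgG2a tumours. Its highest value was in anti-PD-1 replicate 6, apart from the other 7 of its group. The log2 fold change was 0.31 ± 0.20 (SE). Ccnb1, the cyclin B partner of Cdk1, had 89.2, 104 and 129.8 CPM in anti-PD-1 tumours, against 27.2, 105 and 115 CPM in IgG2a tumours. Its groups overlapped, with IgG2a replicate 7 far below the other tumours, and its log2 fold change was 0.17 ± 0.21 (SE). Foxm1, the transcription factor of the late cell cycle, had 53.0, 132 and 155 CPM in anti-PD-1 tumours, against 34.1, 141 and 156 CPM in IgG2a tumours. Its low outlying values were again those of anti-PD-1 replicate 6 and IgG2a replicate 7, and its log2 fold change was -0.06 ± 0.26 (SE).

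Mki67, which encodes the Ki-67 protein used to score dividing cells (ENSMUSG00000031004, chromosome 7, 135689784 to 135716361), was the exception among mitotic members. It had 75.0, 93.4 and 103 CPM in anti-PD-1 tumours, against 81.5, 93.6 and 128 CPM in IgG2a tumours. IgG2a replicate 7, with 105 CPM, was the second highest of the 16 tumours and stood at 114% of the median of the others. The log2 fold change between groups was -0.11 ± 0.10 (SE), with a 95% interval from -0.32 to 0.10.

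Birc5, which encodes survivin, an inhibitor of apoptosis and part of the chromosomal passenger complex (ENSMUSG00000017716, chromosome 11, 117849251 to 117855743), had the largest estimate between the groups. It had 91.8, 116 and 344 CPM in anti-PD-1 tumours, against 29.8, 86.0 and 149 CPM in IgG2a tumours. The highest value came from anti-PD-1 replicate 6 and the lowest from IgG2a replicate 7, and 8 of 8 anti-PD-1 tumours lay above the IgG2a median while the groups overlapped. The log2 fold change was 0.68 ± 0.30 (SE), with an unadjusted p of 0.0406 and an adjusted p of 0.434 by edgeR's quasi-likelihood test with Benjamini-Hochberg adjustment. Without anti-PD-1 replicate 6 the estimate was 0.35, and without IgG2a replicate 7 it was 0.55. Cenpa, the centromeric histone, had 65.8, 84.9 and 155 CPM in anti-PD-1 tumours, against 34.4, 71.4 and 92.7 CPM in IgG2a tumours, with a log2 fold change of 0.38 ± 0.19 (SE) and an edgeR adjusted p of 0.435.

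Among the S phase members, the helicase subunits kept close together. Mcm2 had 111, 128 and 146 CPM in anti-PD-1 tumours, against 58.9, 136 and 147 CPM in IgG2a tumours, and its log2 fold change was -0.002 ± 0.146 (SE). Mcm5 had 112, 127 and 149 CPM in anti-PD-1 tumours, against 58.4, 124 and 139.7 CPM in IgG2a tumours, and its log2 fold change was 0.13 ± 0.14 (SE). All 6 Mcm subunits had their lowest value in IgG2a replicate 7, between 43.6% (Mcm2) and 56.7% (Mcm4) of the median of the other tumours. The loading and firing factors were lower there: Cdt1 stood at 27.3%, Cdc45 at 32.5% and Cdc6 at 33.0% of that median, while Gins2 stood at 74.6%.

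Of the nucleotide supply and replication fork genes, Rrm2, the regulated subunit of ribonucleotide reductase, had 108, 125 and 143 CPM in anti-PD-1 tumours, against 38.3, 112 and 139 CPM in IgG2a tumours. Its low value was IgG2a replicate 7 and its log2 fold change was 0.26 ± 0.18 (SE). Pcna, the sliding clamp of DNA polymerase, had 133, 159 and 239.7 CPM in anti-PD-1 tumours, against 124, 142 and 175 CPM in IgG2a tumours. Unlike its neighbours in the pathway it was not reduced in IgG2a replicate 7, which had 174 CPM or 118% of the median of the others. Its highest value was in anti-PD-1 replicate 6, and its log2 fold change was 0.18 ± 0.12 (SE). Tyms, the thymidylate synthase, stood at 84.0% of that median in IgG2a replicate 7. Only 27.9% ± 3.7 of its reads in anti-PD-1 tumours and 27.7% ± 2.7 in IgG2a tumours (SD, n = 8 each) were assigned to its most-read protein-coding transcript.

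Of the G1/S switch genes, Ccne2, a cyclin E partner of Cdk2 (ENSMUSG00000028212, chromosome 4, 11191351 to 11204779), had 20.9, 28.1 and 49.7 CPM in anti-PD-1 tumours, against 12.9, 24.2 and 29.2 CPM in IgG2a tumours. Its highest values were those of anti-PD-1 replicates 6 and 7, and the groups overlapped. The log2 fold change was 0.43 ± 0.18 (SE), with an unadjusted p of 0.0308 and an adjusted p of 0.434 by edgeR. Ccne1, the other cyclin E, had 34.1, 36.1 and 51.6 CPM in anti-PD-1 tumours, against 9.88, 32.3 and 38.6 CPM in IgG2a tumours, and a log2 fold change of 0.36 ± 0.20 (SE). E2f1, an activating E2F factor, had 49.0, 50.9 and 61.4 CPM in anti-PD-1 tumours, against 40.7, 52.8 and 54.9 CPM in IgG2a tumours, and a log2 fold change of 0.07 ± 0.09 (SE). E2f8, a repressing E2F factor, had 66.6, 123 and 161 CPM in anti-PD-1 tumours, against 31.8, 155 and 189 CPM in IgG2a tumours. Only 1 of 8 anti-PD-1 tumours lay above the IgG2a median of E2f8, and its log2 fold change was -0.19 ± 0.28 (SE). Mybl2, the B-Myb factor that bridges S phase and mitosis, stood at 24.3% of the median of the others in IgG2a replicate 7. This was not particular to Mybl2: E2f8 stood at 22.7%, Cdt1 at 27.3% and Ccne1 at 27.9%. The median over the S phase members was 47.04%.

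The G1 regulators did not share a direction, with 3 estimates above 0 and 5 below. Ccnd1, or cyclin D1, had 292, 441 and 548 CPM in anti-PD-1 tumours, against 276, 523 and 573 CPM in IgG2a tumours, and 1 of 8 anti-PD-1 tumours lay above the IgG2a median. Ccnd2, or cyclin D2, had 141, 257 and 370.4 CPM in anti-PD-1 tumours, against 182, 341 and 423 CPM in IgG2a tumours. Ccnd3, or cyclin D3, had 102, 120 and 141 CPM in anti-PD-1 tumours, against 103, 116 and 139.6 CPM in IgG2a tumours, and was among the genes not reduced in IgG2a replicate 7. The log2 fold changes of the 3 cyclins were -0.15 ± 0.15, -0.24 ± 0.20 and 0.02 ± 0.08 (SE). Their partner Cdk6 had 51.7, 105 and 134 CPM in anti-PD-1 tumours, against 67.5, 135 and 153 CPM in IgG2a tumours. For Cdk6, 0 of 8 anti-PD-1 tumours lay above the IgG2a median, while the groups overlapped and the log2 fold change was -0.23 ± 0.20 (SE). The other partner, Cdk4, had 249, 283 and 327 CPM in anti-PD-1 tumours, against 122, 260 and 289.7 CPM in IgG2a tumours, with a log2 fold change of 0.22 ± 0.14 (SE).

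Cdk2, the kinase of S phase entry (ENSMUSG00000025358, chromosome 10, 128697939 to 128705031), had 46.9, 49.8 and 57.9 CPM in anti-PD-1 tumours, against 32.7, 45.6 and 52.2 CPM in IgG2a tumours. The groups overlapped, and 8 of 8 anti-PD-1 tumours lay above the IgG2a median. The log2 fold change was 0.22 ± 0.10 (SE), with an unadjusted p of 0.0355 and an adjusted p of 0.434 by edgeR. Rb1, the retinoblastoma protein that holds E2F in check (ENSMUSG00000022105, chromosome 14, 73183673 to 73325822), ran against the other members. It had 14.6, 19.1 and 22.3 CPM in anti-PD-1 tumours, against 16.8, 20.7 and 59.1 CPM in IgG2a tumours. Its 59.1 CPM in IgG2a replicate 7 was 306% of the median of the others, and the log2 fold change of -0.44 ± 0.23 (SE) became -0.14 without that tumour. Cdkn1b, the Cdk inhibitor p27, had 70.5, 83.1 and 112 CPM in anti-PD-1 tumours, against 70.9, 93.5 and 106 CPM in IgG2a tumours, with a log2 fold change of -0.07 ± 0.11 (SE).

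**Figure D2:**
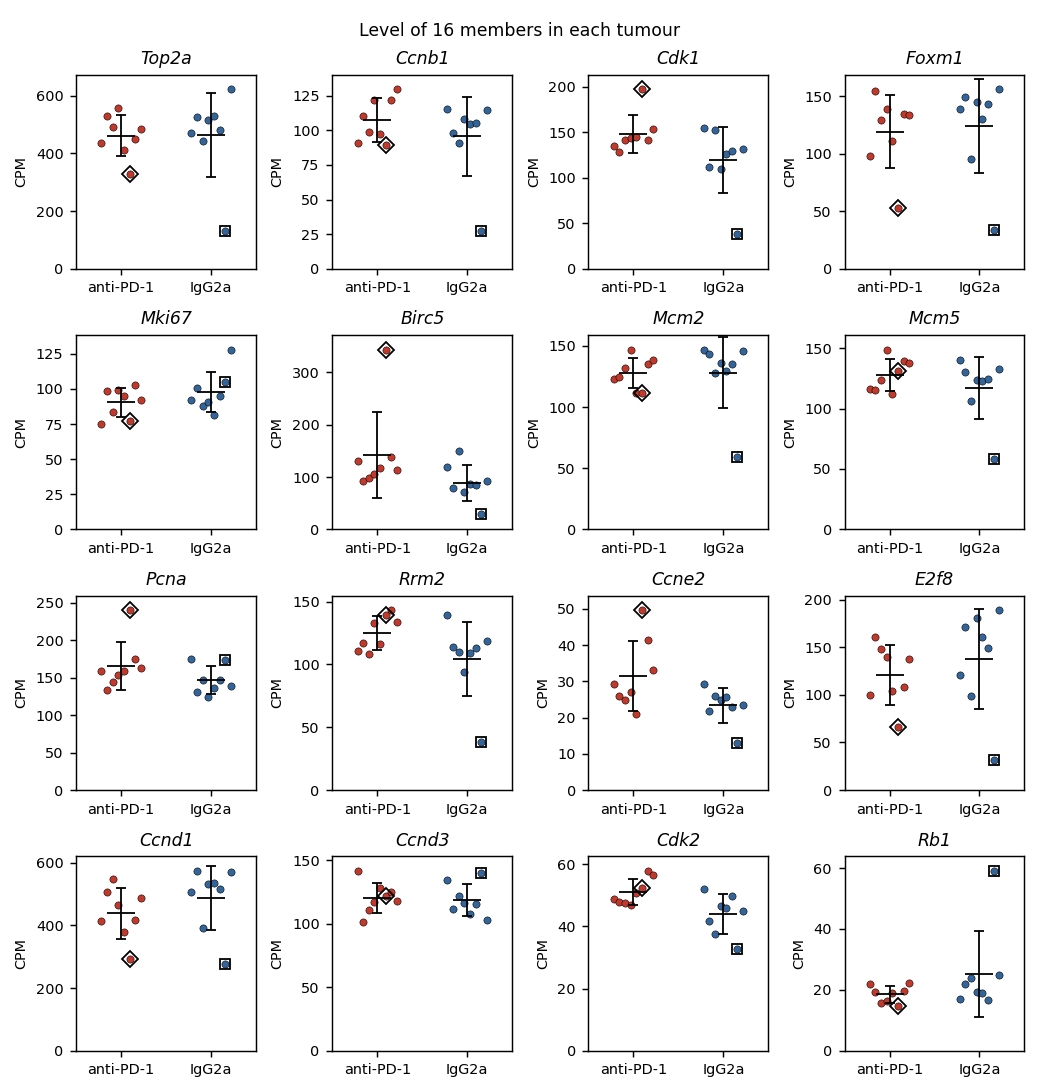
Level in CPM of 16 members in each tumour, anti-PD-1 at left and IgG2a at right in each panel, with the mean and SD of 8 tumours as black bars. The diamond marks anti-PD-1 replicate 6 and the square IgG2a replicate 7, which is the lowest IgG2a point in most panels but not for Mki67, Pcna, Ccnd3 and Rb1.

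For the comparison of anti-PD-1 with IgG2a, 0 of the 48 members passed an adjusted p of 0.05, as did 0% of the 16154 genes tested (edgeR's quasi-likelihood test). At an unadjusted p under 0.05 there were 3 members (Birc5, Ccne2 and Cdk2), or 6.25%, against 11.4% of all genes tested. DESeq2, run without the filter on low counts, called 0 members. It had the same number of members, 3 (6.25%), at an unadjusted p under 0.05, against 1759 genes with 27810 tested. Limma-voom with quality weights called 0 and had 16 of 48 members at that level, against 3421 of 16154 genes. All 48 members overlapped between the groups, with or without IgG2a replicate 7. The like share over all genes was not computed, so this count does not set the members apart. Estimates were above 0 in 17 of 21 mitotic members (median log2 fold change 0.14), in 17 of 19 S phase members (median 0.13) and in 3 of 8 G1 members (median -0.11), against 43.1% of all genes with a median of -0.05. Without IgG2a replicate 7 they were above 0 in 11 of 21 mitotic members (median 0.0011), 15 of 19 S phase members (median 0.04), 3 of 8 G1 members (median -0.13) and 49.5% of all genes. Standard errors of single members ran from 0.08 to 0.30 log2 units, with a median of 0.18, and the median was 0.09 without IgG2a replicate 7. Several estimates of named members moved by over 1.5 times with 1 tumour left out. Without IgG2a replicate 7 they were 0.03 for Ccnb1, 0.18 for Cdk1, 0.06 for Bub1, 0.03 for Mcm5, 0.14 for Rrm2, 0.23 for Ccne1 and 0.12 for Cdk4, and, farther from 0, -0.15 for Top2a, -0.20 for Foxm1, -0.11 for Mcm2, -0.34 for E2f8 and -0.24 for Ccnd1. Without anti-PD-1 replicate 6 they were 0.08 for Pcna, 0.22 for Cenpa, -0.15 for Ccnd2, -0.14 for Cdk6, -0.10 for E2f8 and -0.08 for Ccnd1. Mki67 was at -0.045 without IgG2a replicate 8. With each tumour left out in turn, Ccnd3 ran from -0.02 to 0.06 and Cdkn1b from -0.13 to -0.03, and E2f1 had its lowest estimate, 0.03, without IgG2a replicate 7.

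**Figure D3:**
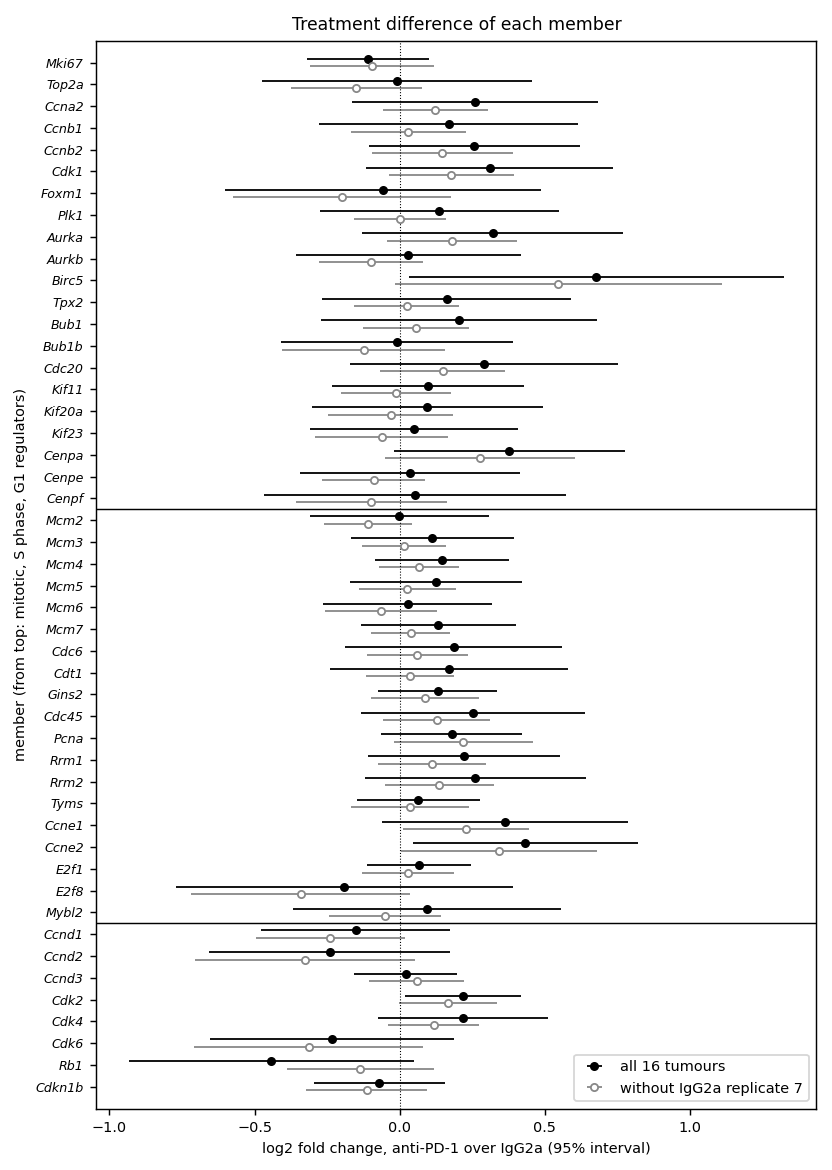
Log2 fold change of each of the 48 members, anti-PD-1 over IgG2a, with its 95% interval, by role from top to bottom. Filled points use all 16 tumours and open points leave out IgG2a replicate 7; with all tumours the intervals of Birc5, Ccne2 and Cdk2 lie above 0, and without that tumour most mitotic estimates shift to the left, some of them from above 0 to below it (Cenpf, 0.05 with all tumours and -0.10 without it).

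Other genes of the same pathways gave the same counts of calls. Of 31 other mitotic genes, 29 had an estimate above 0 (median log2 fold change 0.20), 0 were called, and 0 had an unadjusted p under 0.05 by edgeR. Without IgG2a replicate 7 it was 22 of 31, with a median of 0.07. Pttg1, or securin, had 74.4, 87.2 and 253 CPM in anti-PD-1 tumours, against 34.7, 61.0 and 124 CPM in IgG2a tumours, and Cdca3, a mitotic entry factor, had 88.3, 93.0 and 206 CPM in anti-PD-1 tumours, against 23.2, 75.2 and 116 CPM in IgG2a tumours. Their log2 fold changes were 0.59 for Pttg1 and 0.52 for Cdca3, and 0.26 and 0.33 without anti-PD-1 replicate 6. Of 30 other S phase genes, 26 had an estimate above 0 (median 0.24), 0 were called and 3 had an unadjusted p under 0.05. Without IgG2a replicate 7 it was 21 of 30, with a median of 0.14. Cdc7, the kinase that fires origins, had 17.1, 19.8 and 24.8 CPM in anti-PD-1 tumours, against 11.9, 17.2 and 19.2 CPM in IgG2a tumours. Orc6, of the origin recognition complex, had 44.7, 50.1 and 72.0 CPM in anti-PD-1 tumours, against 21.9, 40.7 and 52.1 CPM in IgG2a tumours. The log2 fold changes of Cdc7 and Orc6 were 0.32 ± 0.12 and 0.39 ± 0.15 (SE), and the edgeR adjusted p was 0.434 for both. Of 12 Cdk inhibitors, pocket proteins and related factors, 3 had an estimate above 0 (median -0.15), 0 were called and 0 had an unadjusted p under 0.05, and without IgG2a replicate 7 it was 5 of 12 with a median of -0.04. Rbl2, the pocket protein p130, had 28.2, 48.2 and 58.8 CPM in anti-PD-1 tumours, against 49.8, 54.9 and 66.0 CPM in IgG2a tumours. Ccng1, or cyclin G1, had 62.0, 73.0 and 83.7 CPM in anti-PD-1 tumours, against 65.3, 73.2 and 260.1 CPM in IgG2a tumours, and its log2 fold change of -0.44 was -0.07 without IgG2a replicate 3. DESeq2 and limma-voom with quality weights also called 0 genes of these 3 lists. At an unadjusted p under 0.05 DESeq2 had 1 other mitotic and 4 other S phase genes, and limma-voom had 13 and 14. Over all genes, DESeq2 had 1759 with 27810 tested, and limma-voom had 3421 of 16154.

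The members were then set against the stromal content of each tumour, taken as a score: the mean of the fibroblast and matrix score and the endothelial score, in log2 units. The score of IgG2a replicate 7 lay 3.21 above the median of the 16 tumours, and the other 15 lay between -0.29 and 1.04. In a fit with the treatment group as covariate, the slope on this score was below 0 with an adjusted p under 0.05 in 40 of 48 members by edgeR, against 19.7% of all genes, and above 0 in 2, Rb1 and Ccnd3, against 24.4% of all genes. Those called below 0 were 19 of 21 mitotic, 16 of 19 S phase and 5 of 8 G1 members. Median slopes were -0.45 log2 units per unit of stromal score for mitotic, -0.32 for S phase and -0.21 for G1 members. The steepest mitotic slopes were -0.61 ± 0.10 for Cenpf and -0.57 ± 0.09 for Bub1 (SE), and the steepest S phase slopes were -0.67 ± 0.10 for E2f8 and -0.54 ± 0.09 for Mybl2 (SE). Ccnd1 and Ccnd2 had slopes of -0.30 ± 0.07 and -0.31 ± 0.10 (SE), Rb1 had 0.42 ± 0.07 and Ccnd3 had 0.11 ± 0.04 (SE). Not called were Mki67 (slope 0.02), Birc5 (-0.36), Pcna (0.08), Tyms (-0.02), Gins2 (-0.09) and Cdkn1b (-0.14).

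The calls were lost without IgG2a replicate 7. Then 0 of 48 members had a called slope in either direction by edgeR, against 1.47% of all genes called below 0 and 7.14% called above 0. At an unadjusted p under 0.05 there were 4 members, or 8.33%, against 3973 of the 16293 genes tested. The median slopes were then -0.08 for mitotic, -0.07 for S phase and -0.15 for G1 members, and slopes of steep mitotic members were smaller, at -0.22 ± 0.16 for Cenpf and -0.11 ± 0.12 for Bub1 (SE). Other slopes stayed at or near their size over 16 tumours, or were steeper, with larger errors: -0.35 ± 0.15 for Ccnd1, -0.46 ± 0.23 for Ccnd2, -0.47 ± 0.24 for Cdk6, -0.55 ± 0.21 for E2f8 and -0.34 ± 0.17 for Bub1b (SE). With IgG2a replicate 3 and anti-PD-1 replicate 6 left out as well, 3 members (6.25%) were called below 0, against 482 of 16352 genes tested. The call of Ccnd3 was also lost under 19 of 23 other settings, DESeq2 among them, with slopes between 0.07 and 0.30.

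**Figure D4:**
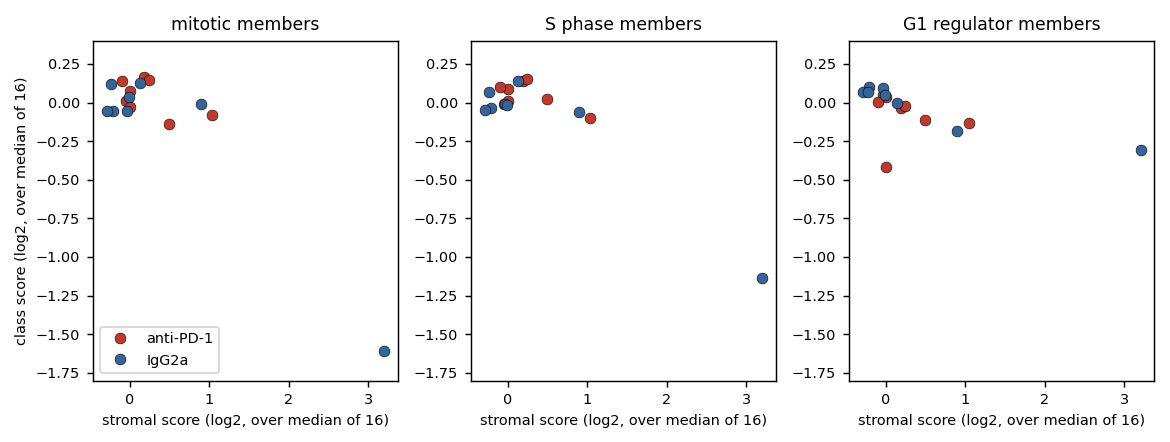
Score of the mitotic, S phase and G1 members (y axis, mean log2 CPM over its median of 16 tumours) against the stromal score of the same tumour (x axis, log2 over its median), with 1 point a tumour. In the mitotic and S phase panels IgG2a replicate 7 lies alone at a stromal score of 3.21, while among the other 15 tumours only the G1 score keeps a downward order.

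As a description over tumours that share the same libraries, the mitotic score had a Pearson r of -0.90 and a Spearman rho of -0.22 with the stromal score over 16 tumours, and an r of -0.27 without IgG2a replicate 7. The relation rested on that tumour. The endothelial score on its own gave an r of -0.96 with the mitotic and -0.97 with the S phase score, and -0.50 and -0.66 without IgG2a replicate 7. The fibroblast and matrix score on its own gave -0.09 and -0.04 for these classes without that tumour. The G1 score behaved otherwise. Against the fibroblast and matrix score its rho was -0.87 over 16 tumours and -0.86 over 15. Its r was -0.60 over 15 and -0.62 without the 2 tumours farthest from the median, anti-PD-1 replicate 5 and IgG2a replicate 7. This was not particular to fibroblast markers. Over 15 tumours the rho of the G1 score was -0.66 with the epithelial and -0.55 with the adipocyte score. It was -0.39 with the leukocyte, -0.30 with the T cell and -0.11 with the endothelial score. The 8 G1 genes did not vary as one: over the 15 tumours the median Pearson r of their 28 pairs was -0.12, with a range from -0.73 to 0.92. The S phase and mitotic scores followed each other, with an r of 0.99 over 16 tumours and 0.76 over 15. The T cell marker score had an r of -0.10 with the mitotic and of -0.01 with the S phase score over the 15 tumours.

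Outside IgG2a replicate 7 the median member varied less than the median gene. The median coefficient of variation over the other 15 tumours was 11.7% for the members, against 26.2% over all genes tested. Genes with read counts like those of the members were not compared, and the part of read count in this difference was not tested. Among the members the coefficient was lowest for Mcm7, at 6.61%, and highest for Birc5, at 53.8%. Over the 15 tumours the median Pearson r was 0.36 among 210 pairs of mitotic members, 0.29 among 171 pairs of S phase members and 0.25 between mitotic and S phase members. It was 0.13 between mitotic and G1 members, 0.08 between S phase and G1 members and -0.12 among G1 members. Mitotic pairs ran from -0.91 to 0.94, and their median was 0.87 with IgG2a replicate 7 included. E2f8, Ccnd1, Ccnd2 and Cdk6 varied together across the class borders, with an r of 0.95 for E2f8 with Ccnd1, 0.95 for E2f8 with Ccnd2 and 0.94 for E2f8 with Cdk6. Birc5 ran against them, with an r of -0.93 for E2f8, -0.93 for Cdk6 and -0.93 for Ccnd2, and with Pcna it had 0.92.

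This variation ran with transcript length in some tumours more than in others, and in both directions. In each tumour the deviations of the 48 members from their medians were ranked against the length of their transcripts, weighted by reads. The same relation over all genes tested was not computed, so it is not shown to be particular to the members. The rank correlation across the 48 genes was below 0, short transcripts being high, in 7 of 8 anti-PD-1 tumours and 2 of 8 IgG2a tumours. Its lowest, median and highest values were -0.74, -0.28 and 0.71 in anti-PD-1 tumours, against -0.65, 0.42 and 0.75 in IgG2a tumours, and the groups overlapped. The lowest was in anti-PD-1 replicate 6, where Birc5, Cenpa and Pcna, with mean lengths of 1111, 1308 and 1495 bases, were high. Cdk6, Ccnd2 and Foxm1, with 11364, 6202 and 4489 bases, were low there. The rank correlation averaged -0.20 ± 0.44 in anti-PD-1 tumours and 0.23 ± 0.53 in IgG2a tumours (SD, n = 8 each), a difference that did not pass an exact permutation test (two-sided p = 0.0956). Its part in the estimates of Birc5, Cenpa and Cdk6 was not tested. In anti-PD-1 replicate 6 the assignment of reads to isoforms differed: Aurkb-202 took 41.2% of the Aurkb reads, against 3.32% to 9.51% in the other 15 tumours, and Cdc45-202 took 74.9% of the Cdc45 reads, against 22.2% to 59.6%.

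**Figure D5:**
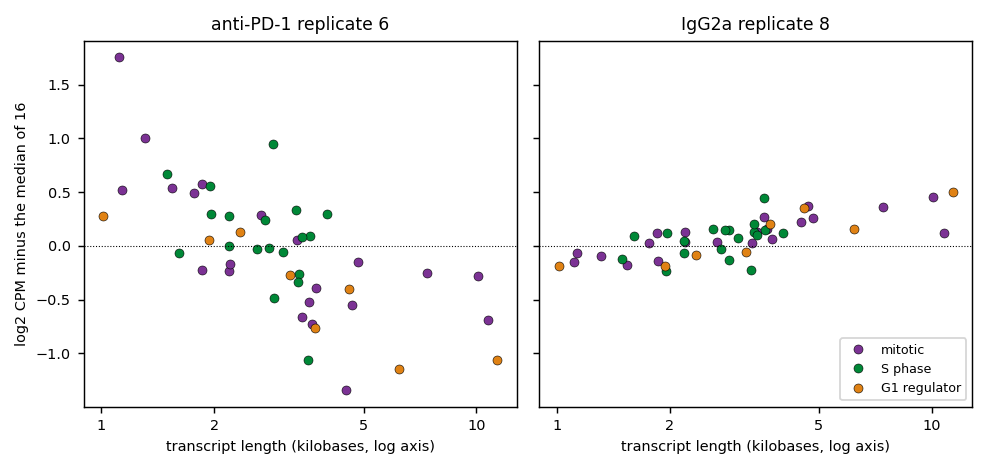
Deviation of each of the 48 members from its median of 16 tumours (y axis, log2 CPM) against transcript length (x axis, kilobases on a log axis) in anti-PD-1 replicate 6 and IgG2a replicate 8, coloured by role. Points fall from left to right in anti-PD-1 replicate 6 (rank correlation -0.74) and climb in IgG2a replicate 8 (0.75). These 2 tumours were the lowest and the highest of the 16 and do not stand for their groups. The rank correlation was 0.71 in anti-PD-1 replicate 2, -0.65 in IgG2a replicate 1 and 0.05 in IgG2a replicate 7.

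Levels of different members can be compared only per length, as TPM, in which each transcript's reads are divided by its length and scaled to a common total. On that scale Cdk4 was the most abundant member, with a mean of 625 TPM in anti-PD-1 tumours and 571 TPM in IgG2a tumours. Cdk1 followed with 299 TPM in anti-PD-1 and 293 TPM in IgG2a tumours, then Top2a with 216 TPM in anti-PD-1 and 195 TPM in IgG2a tumours. These sums include short transcripts not annotated as protein coding, to which division by length gives more weight. Over the 16 tumours Cdk4-209, a retained intron of 468 bases, held a mean of 20.3% of Cdk4 reads. Cdk1-204, a retained intron of 475 bases, held 14.2% of Cdk1 reads. The most-read Cdk4 transcript, Cdk4-205, held 26.7%. Rb1 was the scarcest, with 6.28 TPM in anti-PD-1 and 9.42 TPM in IgG2a tumours, and Mki67 came next, with 10.01 TPM in anti-PD-1 and 11.5 TPM in IgG2a tumours. For 28 of 48 members the most-read transcript held at least 90% of the reads, and for 47 of 48 it was protein coding, the exception being Cenpa, whose Cenpa-202 is annotated as subject to nonsense-mediated decay. The summed count was whole, within 0.01 of a read, in all 16 tumours for 33 members. The other 15, Ccna2, Ccnb1 and Ccne2 among them, had fractional sums in at least 1 tumour, as when reads are divided with a transcript outside the sum, and are uncertain to that extent. The library kit did not keep the strand, so reads of a member and of an overlapping antisense gene cannot be told apart.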

How the data were processed

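RNA from 16 tumours (RNA integrity number above 5, per the labels) was sequenced after poly(A) selection with a non-directional kit. The deposited tables give, per the file headers, an estimated count (NumReads), a TPM value and transcript lengths for 115088 Ensembl transcripts per tumour, made by the authors with a quantifier that is not given in the sources used here. Estimated counts were summed per gene over the 114200 transcripts matched to GENCODE and rounded. Low genes were removed by filterByExpr (count of at least 10, total of at least 15). The rest were scaled by TMM and tested with edgeR 4.0.16 (robust quasi-likelihood, R 4.3.3) over all 16154 genes, with Benjamini-Hochberg adjustment at 0.05. CPM are TMM-scaled, and log2 CPM has a prior count of 2. The tools edgeR and limma and the mouse build GRCm38 appear in the submitters' processing notes. The stromal slope was fitted with treatment as covariate. DESeq2 1.42.0, limma 3.58.1 (voom with quality weights), DESeq2 size factors, no filter, other stromal scores and leaving out each tumour were the alternatives. The fit was also run on simulated counts with known changes. These had less spread between tumours than the real data and no outlying tumour, so that run does not vouch for the fit here. The lowest chi-square per gene between 2 tumours of a group was 28.3, so all were counted as separate. Named genes were 17 chosen by role, those of smallest p or steepest slope per class, and 2 of smallest p from each related list; other members were named after their values were seen. The members, lists and rules were chosen with earlier results of these data known.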

Additional observations from a re-analysis of the deposited data

Results flagged for a closer look

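A value was picked out when the gap between the highest or lowest of the 8 tumours of a group and the nearest other, divided by the range of the group, exceeded Dixon's 95% critical value. Of 60 such sets of 8 tumours checked, 28 extreme values were picked out. For a single set, chance picks out about 1 in 20. The sets share the same tumours, and some genes were named for a steep stromal slope, so the 28 values cannot be read against that rate.

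Most belonged to IgG2a replicate 7. As the lowest of its group it had 130.1 CPM of Top2a, 27.2 of Ccnb1, 38.5 of Cdk1, 34.1 of Foxm1, 29.8 of Birc5, 34.4 of Cenpa, 30.2 of Cenpf and 18.8 CPM of Bub1 among mitotic genes. Among S phase and G1 genes it was the lowest with 58.9 CPM of Mcm2, 58.4 of Mcm5, 38.3 of Rrm2, 9.88 of Ccne1, 12.9 of Ccne2, 31.8 of E2f8, 23.1 of Mybl2 and 122 CPM of Cdk4, and with 59.1 CPM of Rb1 it was the highest. Its mitotic score of -1.61 and S phase score of -1.14 were the lowest of the group, and its stromal score of 3.21 the highest (log2 units over the median of 16). Its endothelial, adipocyte and epithelial markers were also the highest of all 16 tumours, and their part in these values was not tested.

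Anti-PD-1 replicate 6 was the highest of its group with 198 CPM of Cdk1, 239.7 of Pcna, 344 of Birc5 and 155 CPM of Cenpa, and the lowest with 53.0 CPM of Foxm1, 51.7 CPM of Cdk6 and a G1 score of -0.42. The high genes have short and the low genes long transcripts, and the part of length was not tested. Anti-PD-1 replicate 5 was the lowest of its group in Bub1, with 65.6 CPM.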

How the results depend on the processing

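Members called between anti-PD-1 and IgG2a numbered 0 under all 22 alternatives; over all genes, DESeq2 called 4. For the stromal slope, genes called numbered 3813 with limma-voom and quality weights, 1106 without the 3 tumours that stand apart (IgG2a replicates 3 and 7, anti-PD-1 replicate 6), and 1402 to 8503 with 1 tumour left out, the lowest being without IgG2a replicate 7. Members called below 0 numbered 17 with limma-voom, 3 without the 3 tumours and 0 to 41 with 1 left out. Over all genes, those called below 0 numbered 1421 of 16154, 482 of 16352 and, with 1 left out, 239 to 4022. Members called above 0 numbered 0 with limma-voom or without the 3 tumours, 1 with DESeq2, DESeq2 size factors, no filter or the endothelial score alone, and 0 to 2 with 1 left out. Over all genes, those called above 0 numbered 2392 with limma-voom and 624 without the 3 tumours. They numbered 3665 to 4907 in the settings that called 1 member, and 1163 to 4481 with 1 tumour left out. The cause was not tested.

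With 1 tumour left out, log2 fold changes ran from -0.016 to 0.058 for Ccnd3, -0.098 to 0.12 for Cenpf, -0.20 to 0.053 for Foxm1, -0.11 to 0.030 for Mcm2, -0.051 to 0.15 for Mybl2 and -0.15 to 0.063 for Top2a, and the slope of Mki67 from -0.063 to 0.053. Without the 3 tumours they were 0.048 for Ccng1, -0.039 for Cenpf, -0.050 for E2f1, -0.023 for Mcm5 and -0.055 for Mybl2, with slopes of -0.050 for Mki67 and -0.063 for Rb1. With limma-voom they were 0.012 for Ccng1, -0.048 for E2f1 and -0.0032 for Mybl2. Without a filter, Mcm2 had 0.0039 and the slope of Mki67 was -0.014. No paired analysis was possible because the labels tie no tumours of the 2 groups together; replicate numbers here only name the tumours.

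Depth was at least 59036535 reads and the lowest member count 613, so the spread between tumours, and not counting, limits these comparisons. Only 8 tumours a group were measured, 1 tumour carries most of the difference in the mitotic and S phase scores, and the labels give no batch.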
